A study of Rattus norvegicus with 4 samples.

Results

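The interferon gamma GTPases Igtp, Irgm, Gbp2, Gbp4 and Gbp5 were followed through the white cells of rat blood, together with the transcription factor Irf1, the receptor chain Ifngr1, the chemokine Cxcl10 and the checkpoint ligand Cd274. These 9 genes were found by symbol among the 25340 genes listed in each library. The blood came from 4 groups of rats, each sequenced as 1 droplet single-cell library. MSC-i.t rats had a traumatic spinal cord injury made by Allen's method, a weight-drop contusion, and received umbilical cord mesenchymal stromal cells (MSC) into the spinal canal at 10000000 cells/kg. MSC-i.v rats had the same injury and received the cells into a vein at 30000000 cells/kg. Both treatments were given at 72 hours and again at 7 days after injury. SCI rats were injured without cells, and Sham rats were the sham group. The labels do not describe the sham operation, and the design text counts the rats of all 4 groups, Sham included, among those injured by Allen's method. What the Sham rats underwent therefore cannot be told from the labels, and this bears on each ratio over Sham. The study used 10 rats a group. How many rats stand behind a library, their strain and age, and when the blood was drawn are not given in the sources used here. The name of the deposited SCI data set carries another time tag than the names of the other 3 data sets. The labels do not say whether SCI blood was drawn at another time. Time therefore cannot be told apart from injury in SCI over Sham. In the ratios of the cell-treated libraries over SCI it cannot be told apart from the cell treatment.

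Interferon gamma is secreted mainly by activated T cells and natural killer (NK) cells. It binds a receptor made of the Ifngr1 and Ifngr2 chains, which signals through the kinases Jak1 and Jak2 to GAS elements in promoters. The Irf1 protein that is induced binds ISRE elements, so a further set of genes is switched on. Among the strongest targets are large GTPases: the immunity-related GTPases, of which Igtp (also called Irgm3 in the mouse) and Irgm act on the vacuoles of intracellular pathogens, and the guanylate-binding proteins such as Gbp2, Gbp4 and Gbp5, which coat such vacuoles and promote inflammasome activation. Cxcl10 is a chemokine that attracts activated T cells, and Cd274 (PD-L1) restrains T cells through their receptor PD-1. Many of these genes also respond to type I interferons, so their level alone does not name the interferon.

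Promoters of the members are shown because the sequence lets a reader see which interferon elements each carries. All 9 members matched an entry in the RefSeq promoter table of assembly GRCr8, which gives 250 bases before and 50 after the transcript start. The letters searched on both strands were TTCNNNGAA for the GAS and GAAANNGAAA, or its reverse complement TTTCNNTTTC, for the ISRE core. The motifs do not overlap in these windows. Capitals mark the matches, and each window is printed 5′ to 3′ on the strand of the gene. Igtp lies at chr10:42874797-42875096 on the plus strand, Irgm at chr10:33742529-33742828 on the minus strand, Irf1 at chr10:38417685-38417984 on the plus strand and Gbp2 at chr2:234005477-234005776 on the plus strand.
Igtp: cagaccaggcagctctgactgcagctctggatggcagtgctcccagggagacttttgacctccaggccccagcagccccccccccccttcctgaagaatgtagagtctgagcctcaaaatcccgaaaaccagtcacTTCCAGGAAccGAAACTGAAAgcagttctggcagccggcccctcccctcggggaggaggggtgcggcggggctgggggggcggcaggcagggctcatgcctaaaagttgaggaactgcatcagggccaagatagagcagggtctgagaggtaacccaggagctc
Irgm: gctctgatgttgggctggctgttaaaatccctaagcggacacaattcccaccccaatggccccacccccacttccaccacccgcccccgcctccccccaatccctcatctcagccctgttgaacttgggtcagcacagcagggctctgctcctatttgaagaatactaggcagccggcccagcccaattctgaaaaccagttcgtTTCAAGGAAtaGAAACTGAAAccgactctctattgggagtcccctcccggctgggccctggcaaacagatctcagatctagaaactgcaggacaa
Irf1: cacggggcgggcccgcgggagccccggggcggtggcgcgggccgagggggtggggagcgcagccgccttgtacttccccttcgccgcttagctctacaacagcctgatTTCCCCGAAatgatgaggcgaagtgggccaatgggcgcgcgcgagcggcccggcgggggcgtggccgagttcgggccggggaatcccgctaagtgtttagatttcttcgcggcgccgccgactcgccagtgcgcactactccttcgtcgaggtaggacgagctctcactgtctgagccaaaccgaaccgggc
Gbp2: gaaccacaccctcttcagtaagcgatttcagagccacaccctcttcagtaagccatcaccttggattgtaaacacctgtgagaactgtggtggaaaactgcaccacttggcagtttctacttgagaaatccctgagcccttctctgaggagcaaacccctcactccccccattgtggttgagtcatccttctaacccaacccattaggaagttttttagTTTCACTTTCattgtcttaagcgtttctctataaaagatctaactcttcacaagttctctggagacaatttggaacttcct
In Igtp the GAS lay at -114 to -106 from the start and the ISRE core at -103 to -94. In Irgm the GAS lay at -45 to -37 and the ISRE core at -34 to -25. Irf1 held a GAS at -142 to -134 and no ISRE core, and Gbp2 an ISRE core at -31 to -22 and no GAS. An ISRE core stood also in Gbp4 (TTTCGATTTC, -10 to -1), in Gbp5 (TTTCAATTTC, -56 to -47) and in Cxcl10 (GAAAGTGAAA, -243 to -234). Neither motif was found in the windows of Ifngr1 and Cd274. Thus 3 of the 9 windows held a GAS and 6 an ISRE core, against 8.87% and 3.92% of the 33469 promoters in the table. Igtp and Irgm have the same arrangement, a GAS followed after 2 bases by an ISRE core. This combination, looked for after both windows had been read, occurs in 7 promoters of the table (0.0209%). The others are those of Irgm2, Ifgga2l2, Parp14, Stra8 and LOC134480693. A match is a description of letters, not a binding site or a cause of the levels that follow.

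The libraries held 63133881 to 91124523 UMIs (tags that count each captured RNA molecule a single time), and 8527 to 16998 barcodes a library had at least 500 UMIs and 200 genes. Cells were assigned to T, B, NK and monocyte gates by a few marker genes each, and UMIs were summed over the cells of a gate and given per 1000000 UMIs of that gate (CPM). Intervals are exact 95% intervals and cover counting error only. With 1 library a group, no difference between groups can be tested, and each ratio sets 1 library against another rather than a condition against another. A ratio is called when it is at least 1.5-fold, its interval excludes 1 and the gene has at least 50 UMIs over both libraries. The same rule applied to all genes gives the background share. The SCI library stood apart: over all genes in the T gate, log2 ratios had an SD of 0.590 for SCI over Sham, 0.575 for MSC-i.t over SCI and 0.572 for MSC-i.v over SCI. Without SCI in the ratio the SD was 0.284 (MSC-i.t over Sham) or 0.254 (MSC-i.v over Sham). For the main results that rest on SCI, the ratios of the cell-treated libraries over Sham are therefore given too. The comparisons SCI over Sham, MSC-i.t over SCI and MSC-i.v over SCI share the SCI library, so opposite signs in them are not separate evidence. Of the kept barcodes, 0.882% to 1.25% a library had a sequence also kept in another library.

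The gates were checked with markers that did not define them. The T cell kinase gene Lck had 289 to 330.2 CPM in the T gate and 16.5 to 24.2 CPM in the monocyte gate, and the lysozyme gene Lyz2 had 26177 to 32614 CPM in the monocyte gate and 62.2 to 183 CPM in the T gate. Klrb1a, an NK receptor gene, had 1863 to 2148 CPM in the NK gate and 19.5 to 30.7 CPM in the T gate. By construction, summed T markers (Cd3d, Cd3e and Cd3g) were 2071 to 2358 CPM in the T gate and 78.3 to 102 CPM in the monocyte gate, and summed monocyte markers 5348 to 7117 CPM in the monocyte gate and 9.62 to 28.1 CPM in the T gate. The T gate was the largest, with 7032 cells in MSC-i.t, 8343 in MSC-i.v, 5585 in SCI and 5519 in Sham. The monocyte gate held 479 cells in MSC-i.t, 1313 in MSC-i.v, 325 in SCI and 910 in Sham, the B gate 922 to 2979 and the NK gate 152 to 295 cells a library. In an erythroid gate of red cell precursors and red cells, which should lack these genes, no member exceeded 2.03 CPM. The GTPases belong to multigene families whose copies resemble each other, so reads that fit several copies make the level of each uncertain.

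Across the white cells the members did not share a pattern: monocytes led for Gbp2, Gbp4 and Ifngr1, NK cells for Gbp5 and T cells for Igtp. Class differences were tested over the 4 libraries with edgeR's quasi-likelihood test on 16 sums, with library as a block and Benjamini-Hochberg adjustment over 10484 genes. The tests treat the libraries as replicates of a class, although they differ in condition. For monocytes over T cells 7 members were higher and 2 lower, where 38.2% of all genes were called higher and 38.3% lower, and nothing is read from the members' count itself.

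Ifngr1 (ENSRNOG00000012074), the ligand-binding receptor chain, was highest in monocytes with 337 CPM in MSC-i.t, 388 CPM in MSC-i.v, 295 CPM in SCI and 339.7 CPM in Sham. NK cells followed with 143 to 166 CPM, then B cells with 47.9 to 53.0 CPM and T cells with 35.3 to 41.1 CPM. Monocytes exceeded T cells by 2.95 ± 0.08 on the log2 scale (± SE, n = 4 libraries, edgeR adjusted p = 7e-19) and NK cells exceeded T cells by 1.65 ± 0.09 (edgeR adjusted p = 4.7e-12). For B over T the estimate was 0.14 ± 0.08 with an edgeR adjusted p of 0.15. In CPM the B cell range lay above that of T cells, and the estimate depends on how the sums were scaled. With library totals alone the median gene in B over T was at 0.29, against 0.011 in the test used. The partner chain Ifngr2 had 148 to 159.9 CPM in monocytes and 11.4 to 13.8 CPM in T cells. In NK cells Ifngr2 was at 2.29 CPM in MSC-i.t, at 2.73 CPM in Sham and at 0 in MSC-i.v and SCI. The ligand itself was nearly unseen: Ifng had 1, 2, 2 and 0 UMIs in the NK gates of MSC-i.t, MSC-i.v, SCI and Sham, and at most 5 UMIs in a T gate.

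Irf1 (ENSRNOG00000008144), the factor that carries the signal to ISRE elements, was present in every class. It had 152 CPM in MSC-i.t, 120.1 CPM in MSC-i.v, 178 CPM in SCI and 110.0 CPM in Sham in monocytes and 134 to 159 CPM in NK cells, and these ranges overlap. B cells had 61.1 to 75.0 CPM and T cells 55.7 to 85.3 CPM, again overlapping. Irf1 was higher in monocytes than in T cells by 0.81 ± 0.10 (edgeR adjusted p = 4e-07) and higher in NK than in T cells by 0.77 ± 0.13 (edgeR adjusted p = 4.9e-05). B cells were lower than T cells by a log2 difference of -0.29 ± 0.11 (edgeR adjusted p = 0.024). That call was lost when libraries were scaled by their totals alone, with a difference of -0.000748 and an adjusted p of 0.997, and without the MSC-i.v library, with an adjusted p of 0.260.

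Among the guanylate-binding proteins, Gbp2 (ENSRNOG00000031743) was a monocyte transcript with 180.4 CPM in MSC-i.t, 135 CPM in MSC-i.v, 211 CPM in SCI and 121 CPM in Sham, against 42.8 to 57.7 CPM in NK cells, 18.8 to 28.9 CPM in T cells and 11.1 to 17.5 CPM in B cells. The difference between monocytes and T cells was 2.58 ± 0.12 (edgeR adjusted p = 1.3e-14) and that between B and T cells -0.97 ± 0.16 (edgeR adjusted p = 2.2e-05). Within monocytes, the nonclassical gate, cells without a UMI of Fcnb, Vcan or Fn1, had 196 to 239 CPM and the classical gate, with at least 2 such UMIs, 92.3 to 198 CPM. The nonclassical gate is defined by absent UMIs, so shallow cells can fall in it. Its median depth was 2838.5 to 4036 UMIs, against 5513 to 8444 in the classical gate. Hemoglobin genes made up 2.43% to 6.71% of its UMIs, against 0.616% to 2.80%. Their part in the differences between these gates was not tested. Gbp4 (ENSRNOG00000028768) was highest in monocytes too but had B cells next, with 19 to 35.1 CPM in monocytes, 10.8 to 15.3 CPM in B cells, 4.56 to 10.3 CPM in NK cells and 2.56 to 3.79 CPM in T cells. B cells exceeded T cells in Gbp4 by 1.71 ± 0.14 (edgeR adjusted p = 6.6e-10), opposite in sign to Gbp2. Gbp5 (ENSRNOG00000032240) had yet another order: 72.9 to 91.4 CPM in NK cells, 26.9 to 32.6 CPM in T cells, 18.3 to 24.8 CPM in B cells and 13.1 to 20.4 CPM in monocytes. NK cells were above T cells in Gbp5 by 1.12 ± 0.12 (edgeR adjusted p = 1.8e-07), and monocytes below T cells by a log2 difference of -1.08 ± 0.12 (edgeR adjusted p = 3.9e-08).

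The immunity-related GTPases Igtp and Irgm differed in the place of T cells, which were the highest class for Igtp and the lowest for Irgm. Igtp (ENSRNOG00000027008) had 35.7 CPM in MSC-i.t, 60.0 CPM in MSC-i.v, 42.2 CPM in SCI and 36.1 CPM in Sham in T cells, with 23.2 to 40.1 CPM in monocytes, 25.1 to 26.4 CPM in NK cells and 19.4 to 20.2 CPM in B cells. It was lower than in T cells in monocytes (-0.82 ± 0.12, edgeR adjusted p = 3.4e-06), in B cells (-1.40 ± 0.12, edgeR adjusted p = 1.1e-09) and in NK cells (-1.15 ± 0.20, edgeR adjusted p = 8.2e-05). Irgm (ENSRNOG00000031138) had 35.1 CPM in MSC-i.t, 35.0 CPM in MSC-i.v, 54.6 CPM in SCI and 30.3 CPM in Sham in monocytes, 25.2 to 33.0 CPM in B cells, 19.4 to 36.4 CPM in NK cells and 11.9 to 24.2 CPM in T cells. Irgm was higher than in T cells in monocytes by 1.07 ± 0.17 (edgeR adjusted p = 6.1e-06) and in B cells by 0.63 ± 0.16 (edgeR adjusted p = 0.0016). For NK over T its estimate was 0.50 ± 0.30 with an edgeR adjusted p of 0.21. Monocytes exceeded B cells in both genes, by 0.58 ± 0.15 in Igtp (edgeR adjusted p = 0.0019) and by 0.44 ± 0.18 in Irgm (edgeR adjusted p = 0.039). The Irgm call was lost when MSC-i.t, SCI or Sham was left out, with library sizes alone and without the library term.

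Cd274 (ENSRNOG00000016112) was highest in the nonclassical monocyte gate with 57.6 CPM in MSC-i.t, 44.4 CPM in MSC-i.v, 73.6 CPM in SCI and 55.3 CPM in Sham, against 8.69 to 27.5 CPM in the classical gate. The limits of depth and hemoglobin given for these gates under Gbp2 hold here too. Over whole classes Cd274 had 24.0 to 49.0 CPM in monocytes, 24.0 to 35.1 CPM in NK cells, 15.3 to 21.1 CPM in T cells and 5.18 to 9.83 CPM in B cells. Monocytes exceeded T cells in Cd274 by 0.51 ± 0.13 (edgeR adjusted p = 0.0012), and B cells were lower than T cells by a log2 difference of -1.44 ± 0.15 (edgeR adjusted p = 4.6e-08). Cxcl10 (ENSRNOG00000022256) was the only member with no UMI in the NK gate of any library. Its monocyte level exceeded that of T cells by 4.27 ± 0.38 (edgeR adjusted p = 7.7e-09), and its few UMIs lay in few cells. Monocytes did not lead in every library: in SCI, B cells held 13 Cxcl10 UMIs of 3664785 and monocytes 5 of 1795370.

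The other contrasts between classes were counted in the same way. For B over T, 3 members were higher and 5 lower (background 30.8% and 30.4%). For NK over T, 5 were higher and 1 lower (background 17.9% and 19.8%). For monocytes over B cells, 8 were higher and 1, Gbp5, lower (background 35.3% and 36.8%), and for NK over B cells 5 were higher and 2 lower (background 20.3% and 22.8%). Several smaller calls were lost when a single library was left out. Gbp4 in NK over T (0.90 ± 0.32, edgeR adjusted p = 0.03) had an adjusted p of 0.206 without MSC-i.t, 0.0600 without MSC-i.v and 0.0534 without SCI. Gbp2 in NK over T (0.66 ± 0.22, edgeR adjusted p = 0.021) had 0.113 without SCI, and Gbp5 in monocytes over B cells (-0.40 ± 0.14, edgeR adjusted p = 0.015) had 0.0751 without Sham.

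**Figure D1:**
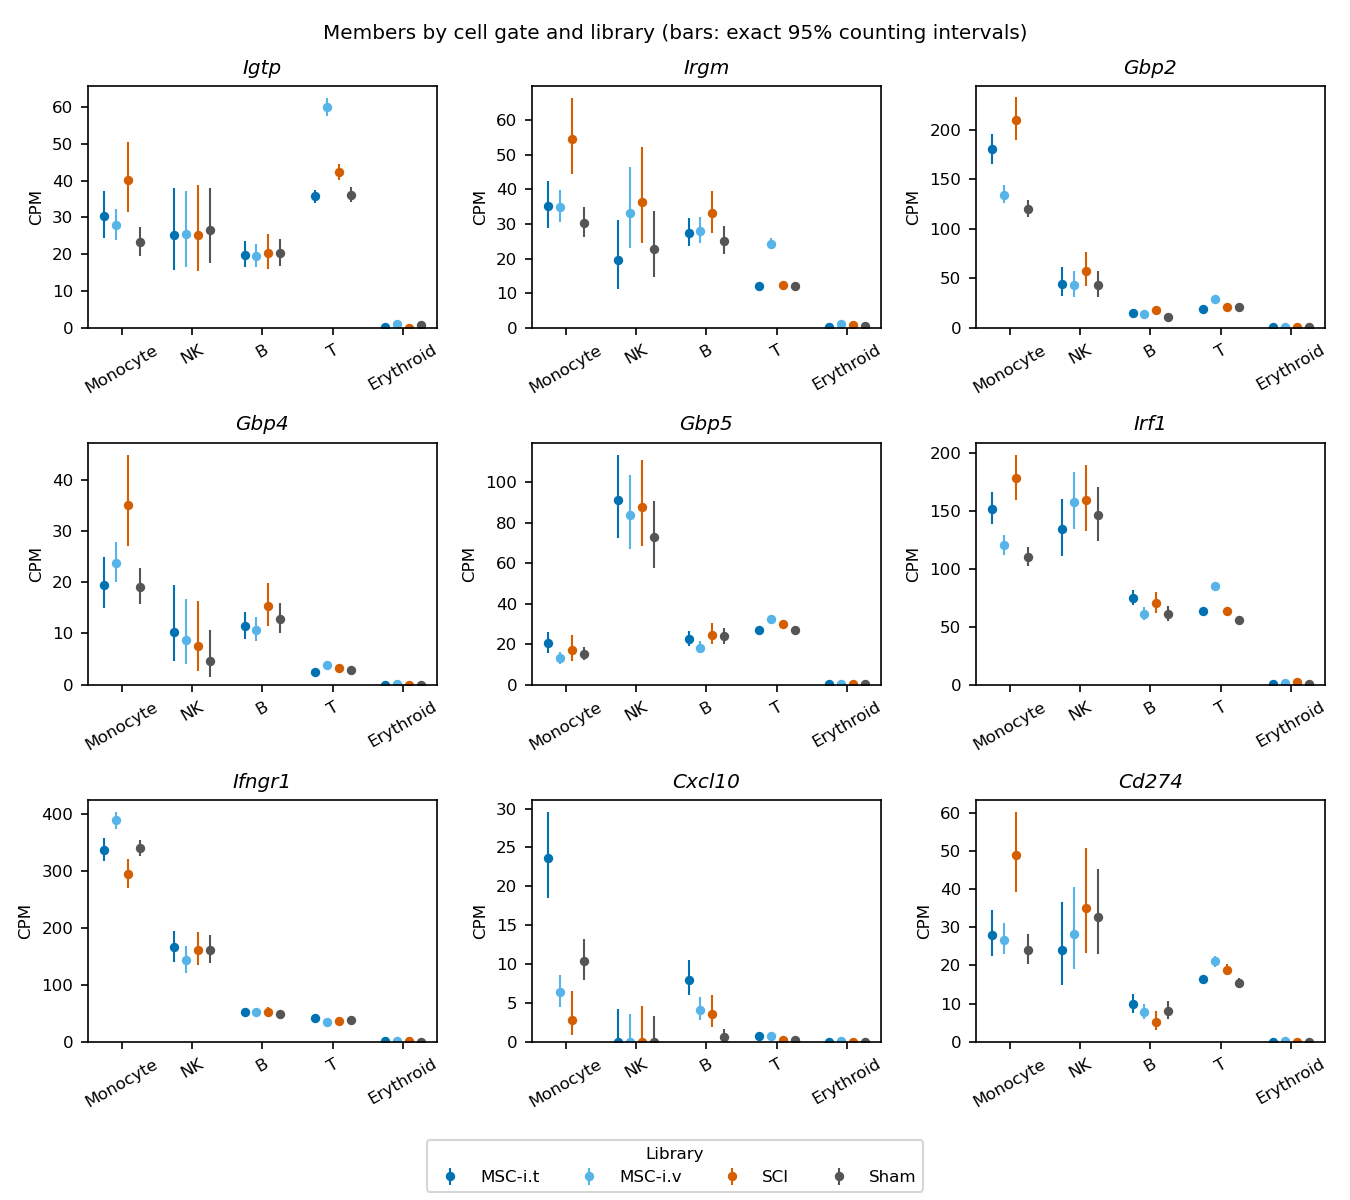
Level in CPM (vertical axis, linear, from 0, own scale for each gene) of each member in the monocyte, NK, B, T and erythroid gates. Each library has a point with its exact 95% counting interval. Gbp2, Gbp4 and Ifngr1 stand highest in monocytes, Gbp5 in NK cells, and Igtp in T cells with MSC-i.v at 60.0 CPM above the other 3 libraries.

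In monocytes, the SCI library had more of the GTPases Gbp2, Gbp4, Igtp and Irgm, more Irf1 and more Cd274 than the Sham library, while Gbp5 and the receptor Ifngr1 were not called. Of the 9 members 6 were called higher and 1, Cxcl10, lower, where 16.2% of all genes were called higher and 3.78% lower. The members' median log2 ratio was 0.79, against 0.18 over all genes.

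Gbp2 had 180.4 CPM in MSC-i.t, 135 CPM in MSC-i.v, 211 CPM in SCI and 121 CPM in Sham. The SCI library is the highest and Sham the lowest, and their intervals, 189.8 to 233 CPM and 112 to 129.5 CPM, do not overlap. Its log2 ratio of SCI over Sham was 0.80 (interval 0.62 to 0.99). Irgm had 54.6 CPM in SCI monocytes, against 30.3 CPM in those of Sham, a ratio of 0.85 (interval 0.48 to 1.21), and Igtp 40.1 CPM in SCI monocytes, against 23.2 CPM in those of Sham, a ratio of 0.79 (interval 0.36 to 1.21). Gbp4 had 19.4 CPM in MSC-i.t, 23.8 CPM in MSC-i.v, 35.1 CPM in SCI and 19 CPM in Sham, a SCI over Sham ratio of 0.89 (interval 0.42 to 1.34). In each of these 4 GTPases SCI was the highest of the 4 libraries. Gbp5 had 20.4 CPM in MSC-i.t, 13.1 CPM in MSC-i.v, 17.3 CPM in SCI and 15.1 CPM in Sham, and its ratio of 0.19 (interval -0.44 to 0.80) was not called. Summed over the 5 GTPases, monocytes had 286 CPM in MSC-i.t, 234 CPM in MSC-i.v, 358 CPM in SCI and 208 CPM in Sham, and SCI over Sham was 0.78 (interval 0.64 to 0.92).

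Irf1 and Cd274 had the same order of libraries as Gbp2, with SCI first, then MSC-i.t, MSC-i.v and Sham. Irf1 stood at 152 CPM in MSC-i.t, 120.1 CPM in MSC-i.v, 178 CPM in SCI and 110.0 CPM in Sham in monocytes, a SCI over Sham ratio of 0.69 (interval 0.50 to 0.89). With cells thinned to 2000 UMIs each, the Irf1 ratio was 0.38, and with the median gene centred at 0 it was 0.52, both under 1.5-fold. Cd274 had 28.1 CPM in MSC-i.t, 26.8 CPM in MSC-i.v, 49.0 CPM in SCI and 24.0 CPM in Sham, a SCI over Sham ratio of 1.03 (interval 0.63 to 1.42), the highest among the members. Ifngr1 was not called at -0.21 (interval -0.35 to -0.07), slightly lower in SCI.

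In classical monocytes 5 members were called higher in SCI over Sham and 1 lower. The log2 ratios were 1.10 for Gbp2, 1.10 for Igtp, 1.03 for Irgm, 0.84 for Irf1 and 1.21 for Cd274, with Cxcl10 lower at -1.80 (background 13.1% higher and 3.43% lower), and summed GTPases had 327 CPM in SCI, against 168 CPM in Sham. Gbp4 at 0.55 (interval -0.22 to 1.26) and Gbp5 at -0.50 (interval -1.63 to 0.47) were not called there. In nonclassical monocytes only Gbp4 was called, at 0.99 (interval 0.29 to 1.69; background 16.3% higher and 2.74% lower), and Gbp2 was at 0.26 and Igtp at -0.19. Against Sham, nonclassical Gbp4 was at 0.08 in MSC-i.t and at 0.14 in MSC-i.v, neither called. Whether the 2 gates differ was not tested. The gates were small in SCI, with 138 classical and 148 nonclassical cells, against 526 classical and 296 nonclassical cells in Sham, so the mixture in the whole gate also differs. Summed platelet markers, a sign of platelet RNA in or on cells, were 1499 CPM in MSC-i.t, 812 CPM in MSC-i.v, 1115 CPM in SCI and 1209 CPM in Sham in the monocyte gate, and platelet-gate barcodes held Gbp2 at 51.3 CPM in MSC-i.t, 66.2 CPM in MSC-i.v, 88.1 CPM in SCI and 81.9 CPM in Sham. The neutrophil gene S100a8 was at 747 CPM in MSC-i.t, 375 CPM in MSC-i.v, 232 CPM in SCI and 1031 CPM in Sham. Their part in these ratios was not tested.

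Genes of the wider pathway were read from lists that were chosen, like the members, with earlier results of these data known. In SCI over Sham monocytes, where 16.2% of all genes were called higher and 3.78% lower, 2 of 8 signalling genes were called higher, among them the kinase Jak2 at 0.60. Of the other interferon-inducible GTPases 3 of 3 tested were called higher: Mx1 at 1.48 and Mx2 at 1.18, antiviral GTPases, and Ifi47 at 0.65, an immunity-related GTPase. Among 20 other genes induced by interferon gamma 4 were called higher and none lower: the antibody-binding ubiquitin ligase Trim21 at 1.02, the immunoproteasome subunit Psmb8 at 0.68, the Fc receptor Fcgr1a at 0.62 and the peptide-loading protein Tapbp at 0.61. The shares called among these 20 genes and among the signalling genes are near the background. Of the type I interferon genes 10 of 14 were called higher, with a median of 0.97, led by Irf7 at 2.0, Herc6 at 1.53 and the RNA sensor Ifih1 at 1.16. Rsad2, an antiviral enzyme of the same list, was called lower at -0.69. Over Sham, 0 of 14 type I genes were called higher and 1 lower in MSC-i.t, and 0 of 15 higher and 1 lower in MSC-i.v. Of the 3 GTPases, 0 were called higher and 1 lower in MSC-i.t over Sham, and 0 either way in MSC-i.v over Sham. Mx1 itself had 70.5 CPM in MSC-i.t, 75.2 CPM in MSC-i.v, 216 CPM in SCI and 77.7 CPM in Sham in monocytes, with SCI far above the other 3 libraries.

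**Figure D2:**
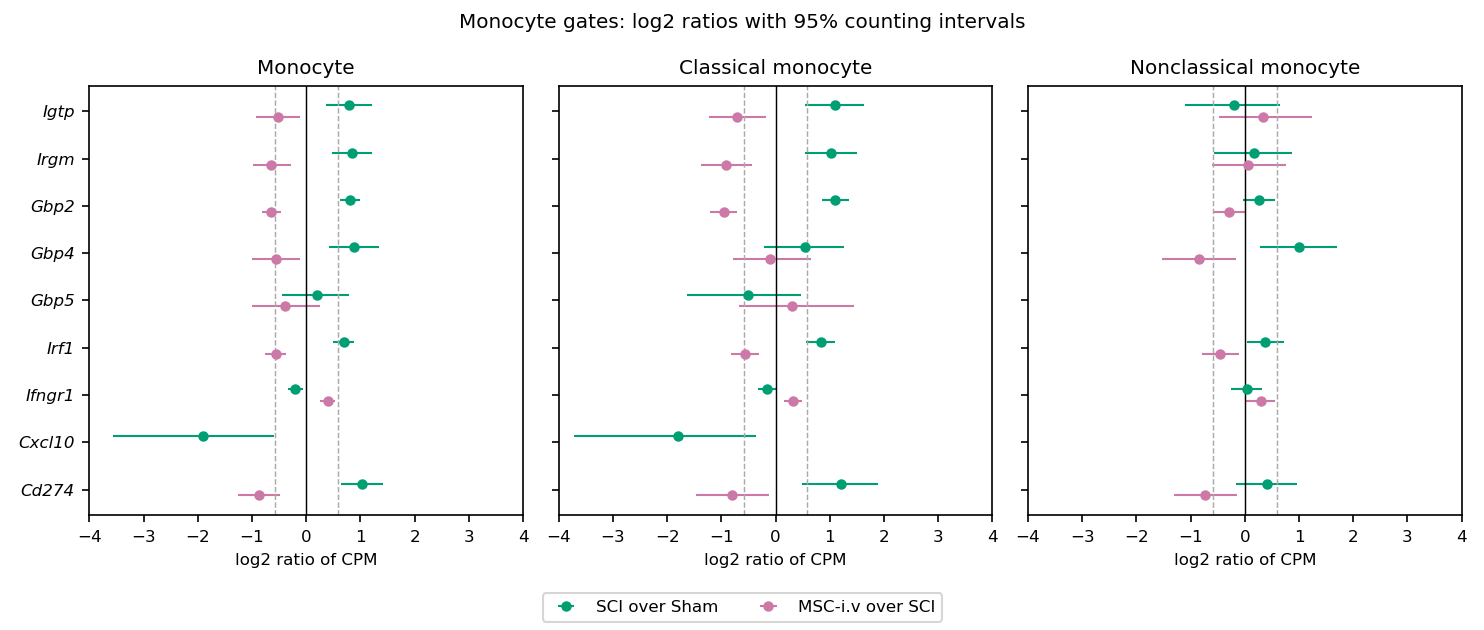
Log2 ratio of CPM (horizontal axis) of each member in the monocyte, classical monocyte and nonclassical monocyte gates for the comparisons between libraries, with exact 95% counting intervals and dashed lines at 1.5-fold. Most SCI over Sham points lie right of 0 in the classical gate (Gbp2 at 1.10), and Cxcl10 has the widest intervals.

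Monocytes of the cell-treated libraries were lower than those of SCI in part of the members. In MSC-i.v over SCI, Gbp2 was at -0.65 (interval -0.82 to -0.47), Irgm at -0.64 (interval -0.99 to -0.28) and Cd274 at -0.87 (interval -1.25 to -0.48), 3 members called lower and 0 higher against a background of 15% lower and 2.23% higher. Irf1 was at -0.57 (interval -0.76 to -0.37), just under 1.5-fold. Each of the 3 calls fell short of 1.5-fold under some setting: with the median gene centred at 0 Gbp2 was at -0.45 and Irgm at -0.45, and with cells thinned to 2000 UMIs Cd274 was at -0.33. In MSC-i.t over SCI, Irgm at -0.64, Gbp4 at -0.85 and Cd274 at -0.80 were called lower (background 14.1%) and Cxcl10 higher (background 3.24%), while Gbp2 was at -0.22 (interval -0.41 to -0.03). Of these, Irgm was at -0.51 with the median gene centred at 0 and Cd274 at -0.17 with cells thinned to 2000 UMIs. Summed GTPases were at -0.61 (interval -0.74 to -0.47) in MSC-i.v over SCI and at -0.32 (interval -0.47 to -0.18) in MSC-i.t over SCI. Type I interferon genes were lower too, 11 of 14 in MSC-i.t over SCI with a median of -1.09 and 10 of 14 in MSC-i.v over SCI with a median of -1.06. All these ratios use the SCI library, which the Sham comparison uses as well.

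Against Sham, which leaves the SCI library out, fewer members were called in the whole monocyte gate. In MSC-i.v over Sham Gbp2 was at 0.16 (interval 0.02 to 0.30), Irf1 at 0.13 (interval -0.02 to 0.28) and Irgm at 0.21 (interval -0.08 to 0.50), and the only member called was Cxcl10, lower (background 2.24% lower and 1.33% higher). In MSC-i.t over Sham Gbp2 was at 0.58 (interval 0.42 to 0.74) and Irf1 at 0.46 (interval 0.29 to 0.64), ratios under 1.5-fold with intervals above 0, and only Cxcl10 was called, higher (background 1.84% higher and 1.8% lower). In the classical gate, MSC-i.t over Sham had 5 members called higher, Gbp2 at 0.69, Gbp5 at 0.79, Igtp at 0.59, Irf1 at 0.72 and Cxcl10 at 1.39, against a background of 2.61% higher and 1.98% lower. Of these, Gbp2 at 0.54, Irf1 at 0.54 and Igtp at 0.23 fell short of 1.5-fold as means of per-cell CPM, and Gbp5 at 0.40 under a stricter gate. In MSC-i.v over SCI the classical gate had 4 called lower, Gbp2 at -0.96, Irgm at -0.91, Cd274 at -0.81 and Igtp at -0.71 (background 11.9% lower and 2.22% higher), whereas MSC-i.t over SCI had none called lower and Gbp5 at 1.29 and Cxcl10 at 3.19 higher (background 3.6% higher and 13% lower). Summed GTPases of classical monocytes were 255 CPM in MSC-i.t, 190.0 CPM in MSC-i.v, 327 CPM in SCI and 168 CPM in Sham. In this sum both cell-treated libraries stood between SCI and Sham, while Gbp5 and Cxcl10 of MSC-i.t stood above SCI and Sham alike. In the whole monocyte gate 48 of the 74 Cxcl10 UMIs of MSC-i.t lay in 1 cell, and SCI had 5 Cxcl10 UMIs. The Cxcl10 ratios of the classical gate were not checked without the cell with the most UMIs.

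The pattern in T cells was another: the MSC-i.v library was the highest, and SCI was close to Sham. Igtp had 35.7 CPM in MSC-i.t, 60.0 CPM in MSC-i.v, 42.2 CPM in SCI and 36.1 CPM in Sham in the T gate. Irgm had 11.9 CPM in MSC-i.t, 24.2 CPM in MSC-i.v, 12.3 CPM in SCI and 12.0 CPM in Sham, with MSC-i.v at about 2 times each of the other 3, which lie within each other's intervals. Irf1 had 63.8 CPM in MSC-i.t, 85.3 CPM in MSC-i.v, 63.3 CPM in SCI and 55.7 CPM in Sham. In all 3 genes the MSC-i.v interval lies above those of the other libraries, at 57.5 to 62.5 CPM for Igtp, 22.6 to 25.8 CPM for Irgm and 82.4 to 88.4 CPM for Irf1.

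In MSC-i.v over Sham, Igtp at 0.73 (interval 0.63 to 0.84), Irgm at 1.01 (interval 0.83 to 1.19) and Irf1 at 0.61 (interval 0.53 to 0.70) were called higher, 3 of 8 members with enough UMIs, where 1.1% of all genes were called higher and 2.43% lower. The median over the 8 members was 0.45, against -0.08 over all genes. Gbp2 at 0.45 (interval 0.31 to 0.59), Cd274 at 0.46 (interval 0.29 to 0.63), Gbp4 at 0.42 (interval 0.02 to 0.82) and Gbp5 at 0.27 (interval 0.15 to 0.40) were under 1.5-fold with intervals above 0. Ifngr1, the receptor chain, was at -0.14 (interval -0.25 to -0.02). Cxcl10 had too few UMIs to be read in T cells.

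In MSC-i.v over SCI only Irgm was called in T cells, at 0.98 with an interval of 0.81 to 1.15 (background 2.53% higher and 13.7% lower). Igtp was at 0.51 (interval 0.41 to 0.60), Gbp2 at 0.45 and Irf1 at 0.43. Irgm in monocytes had the opposite sign in that comparison, which rests on the SCI library, and was not called in MSC-i.v over Sham. No member was called in T cells in SCI over Sham (background 10.9% higher and 3.04% lower), in MSC-i.t over SCI (1.83% and 11.9%) or in MSC-i.t over Sham (0.598% and 2.73%). Summed GTPases in T cells were 95.9 CPM in MSC-i.t, 149 CPM in MSC-i.v, 109 CPM in SCI and 99.0 CPM in Sham. Their log2 ratio was 0.59 (interval 0.53 to 0.66) in MSC-i.v over Sham, 0.45 (interval 0.39 to 0.51) in MSC-i.v over SCI, -0.19 (interval -0.25 to -0.12) in MSC-i.t over SCI, -0.05 (interval -0.11 to 0.02) in MSC-i.t over Sham and 0.14 (interval 0.07 to 0.21) in SCI over Sham.

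Among T cells, more members were called in CD4 T cells, the helper class, than in CD8 T cells. The difference between these gates was not tested. Most T cells of each library lay in neither gate, since both need a UMI of Cd4, Cd8a or Cd8b. In MSC-i.v the CD4 gate held 697 and the CD8 gate 2799 of 8343 T cells. The remaining T cells were not read apart, so the T gate ratios cannot be assigned to 1 of these gates. The CD4 gate takes T cells with a Cd4 UMI and none of Cd8a or Cd8b, 613 to 808 cells a library, and it had Irgm at 11.7 CPM in MSC-i.t, 31.5 CPM in MSC-i.v, 13.3 CPM in SCI and 11.8 CPM in Sham and Igtp at 43.6 CPM in MSC-i.t, 69.8 CPM in MSC-i.v, 46.7 CPM in SCI and 36.0 CPM in Sham. In MSC-i.v over Sham, Irgm was at 1.41 (interval 0.87 to 1.98), Igtp at 0.95 (interval 0.63 to 1.29), Irf1 at 0.81 (interval 0.55 to 1.08), Gbp5 at 0.65 (interval 0.22 to 1.08) and Cd274 at 0.62 (interval 0.09 to 1.16), 5 of 7 members called higher (background 1.62% higher and 3.25% lower). Gbp5 was at 0.48 with cells thinned to 2000 UMIs and Cd274 at 0.49 as a mean of per-cell CPM, both under 1.5-fold. In MSC-i.v over SCI the called members of CD4 T cells were Irgm at 1.24 and Irf1 at 0.76 (background 1.64% higher and 12.3% lower). No member was called in CD4 T cells in the other 3 comparisons, where the background was 10.6% higher and 1.88% lower in SCI over Sham, 1.37% higher and 11.2% lower in MSC-i.t over SCI, and 0.975% higher and 2.21% lower in MSC-i.t over Sham. In CD8 T cells, 1913 to 2799 a library, only Irgm was called in MSC-i.v over Sham, at 0.82 (background 1.03% higher and 2.65% lower), and likewise in MSC-i.v over SCI, at 0.85 (background 1.62% higher and 13.5% lower). Igtp in CD8 T cells had 31.9 CPM in MSC-i.t, 45.0 CPM in MSC-i.v, 37.6 CPM in SCI and 32.3 CPM in Sham. Cytotoxic T cells, 696 to 1353 a library, likewise had only Irgm called in MSC-i.v over Sham, at 0.77 (background 1.33% higher and 3.23% lower). They were 696 of 8343 T cells in MSC-i.v and 880 of 5519 in Sham, so the mixture in the T gate also differs. The part of this mixture in the T gate ratios was not tested.

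Other RNA in the T gate differed between the libraries too. Hemoglobin genes made up 1.67% of T gate UMIs in MSC-i.t, 4.32% in MSC-i.v, 0.806% in SCI and 2.67% in Sham. Barcodes with at most 100 UMIs, a proxy for free RNA, held Igtp at 12.4 CPM in MSC-i.t, 21.0 CPM in MSC-i.v, 15.2 CPM in SCI and 10.7 CPM in Sham, in the same order of libraries as the T cells save for the lowest pair. After free RNA was subtracted, the T cell ratios of MSC-i.v over Sham were 0.82 for Igtp, 0.97 for Irgm and 0.70 for Irf1, and with cells thinned to 2000 UMIs they were 0.66, 1.22 and 0.68. Summed monocyte markers in the T gate were 12.2 CPM in MSC-i.t, 20.6 CPM in MSC-i.v, 9.62 CPM in SCI and 28.1 CPM in Sham, against 5348 to 7117 CPM in the monocyte gate. The neutrophil gene S100a8 was at 3.71 CPM in MSC-i.t, 63.8 CPM in MSC-i.v, 5.97 CPM in SCI and 112 CPM in Sham in the T gate, highest in Sham. The part of such RNA in the T cell ratios was not tested beyond these values.

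In the lists, T cells of MSC-i.v over Sham had further genes called, where 1.1% of all genes were called higher and 2.43% lower. Called higher were 1 of 10 signalling genes and 1 of 3 other GTPases, with 0 lower in both lists. Of 6 inducers of interferon gamma and their receptors 0 were called. Socs1, the feedback inhibitor of Jak kinases, was at 1.07, with 6.47 CPM in MSC-i.t, 18.8 CPM in MSC-i.v, 17.3 CPM in SCI and 8.97 CPM in Sham. Ifi47, an immunity-related GTPase, was at 0.66, with 41.9 CPM in MSC-i.t, 64.2 CPM in MSC-i.v, 39.9 CPM in SCI and 40.5 CPM in Sham. Of 21 other interferon gamma-induced genes Gch1 at 0.72 and Cd40 at 0.99 were called higher and Tap2 at -0.70 lower. Type I interferon genes were mixed, with Ddx58 at 0.83, Rtp4 at 0.81 and Irf7 at 0.77 higher and Ifi27 at -1.53 and Ifit3 at -0.98 lower, 3 and 2 of 16. In SCI over Sham T cells, with a background of 10.9% higher and 3.04% lower, Jak2 at 0.99, Socs1 at 0.95 and Socs3 at 0.60 were called higher among 10 signalling genes, with 0 of 3 GTPases called, 5 of 21 interferon gamma-induced genes called lower and 0 higher, and 2 of 16 type I genes called higher and 3 lower. In MSC-i.v over SCI T cells, with a background of 2.53% higher and 13.7% lower, Ifi47 was at 0.69, 4 of 21 interferon gamma-induced genes were called higher, led by Gch1 at 2.59, and 4 of 16 type I genes were called higher, led by Rsad2 at 1.82.

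**Figure D3:**
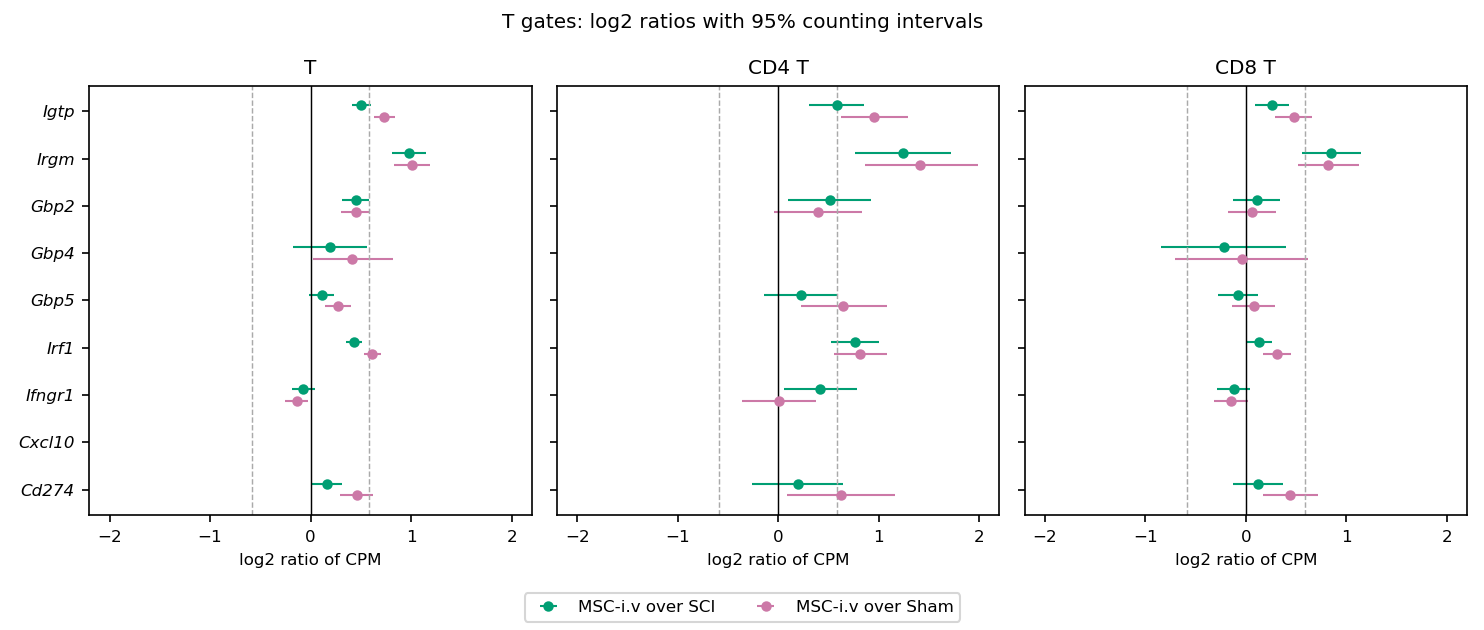
Log2 ratio of CPM (horizontal axis) of each member in the T, CD4 T and CD8 T gates, for MSC-i.v over SCI and MSC-i.v over Sham. Bars are exact 95% counting intervals and dashed lines mark 1.5-fold. Irgm in CD4 T cells has its highest point in MSC-i.v over Sham, at 1.41, with MSC-i.v over SCI at 1.24.

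B and NK cells showed little. In B cells Gbp2 was called higher in SCI over Sham at 0.66, with 14.6 CPM in MSC-i.t, 13.6 CPM in MSC-i.v, 17.5 CPM in SCI and 11.1 CPM in Sham. That call was lost with cells thinned to 2000 UMIs, at 0.36, and with the median gene centred at 0, at 0.52. Gbp2 in B cells was at 0.40 in MSC-i.t over Sham and at 0.30 in MSC-i.v over Sham, neither called. Cd274 was called higher in MSC-i.t over SCI B cells at 0.92 (interval 0.17 to 1.74), with 9.83 CPM in MSC-i.t, 7.67 CPM in MSC-i.v, 5.18 CPM in SCI and 8.01 CPM in Sham. No member but Cxcl10 was called in the other B cell comparisons. The background share of genes called in B cells was 11.7% higher and 1.97% lower in SCI over Sham, 1.41% higher and 11.5% lower in MSC-i.t over SCI, 1.38% higher and 15.4% lower in MSC-i.v over SCI, 1.27% higher and 2.47% lower in MSC-i.t over Sham, and 0.683% higher and 3.65% lower in MSC-i.v over Sham. In NK cells no member was called in any of the 5 comparisons, where the background was 11% higher and 2.52% lower in SCI over Sham, 2.11% higher and 12% lower in MSC-i.t over SCI, 1.52% higher and 12.3% lower in MSC-i.v over SCI, 1.83% higher and 2.92% lower in MSC-i.t over Sham, and 1.75% higher and 3.28% lower in MSC-i.v over Sham. The NK gates were small, and a difference in Gbp2, at 0.43 (interval -0.19 to 1.05) in SCI over Sham, was not detectable at this depth.

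Cxcl10 was a matter of single cells. Monocytes had 23.6 CPM in MSC-i.t, 6.34 CPM in MSC-i.v, 2.78 CPM in SCI and 10.4 CPM in Sham, from 74 UMIs in 13 cells of MSC-i.t, 40 UMIs in 15 cells of MSC-i.v, 5 UMIs in 4 cells of SCI and 64 UMIs in 23 cells of Sham. In MSC-i.t 48 of the 74 UMIs came from 1 cell, and in MSC-i.v 16 of 40. The called ratios were -1.90 (interval -3.57 to -0.60) for SCI over Sham, 3.08 (interval 1.80 to 4.75) for MSC-i.t over SCI and 1.18 (interval 0.68 to 1.69) for MSC-i.t over Sham. The ratio of MSC-i.v over Sham was -0.71 (interval -1.32 to -0.12), and -0.37 under a stricter gate. These intervals assume independent molecules, which UMIs of 1 cell are not. Without the cell with the most Cxcl10 UMIs in each library, MSC-i.t over Sham was -0.05, and SCI over Sham -2.36. In B cells 45 of 52 UMIs of MSC-i.t lay in 1 cell, against 19 of 33 in MSC-i.v, 7 of 13 in SCI and 3 of 4 in Sham. Gbp2, by contrast, was spread over many monocytes: the share of thinned monocytes with a Gbp2 UMI was 28.7% in MSC-i.t, 24.8% in MSC-i.v, 31.3% in SCI and 23.3% in Sham, against at most 0.402% of erythroid cells.

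**Figure D4:**
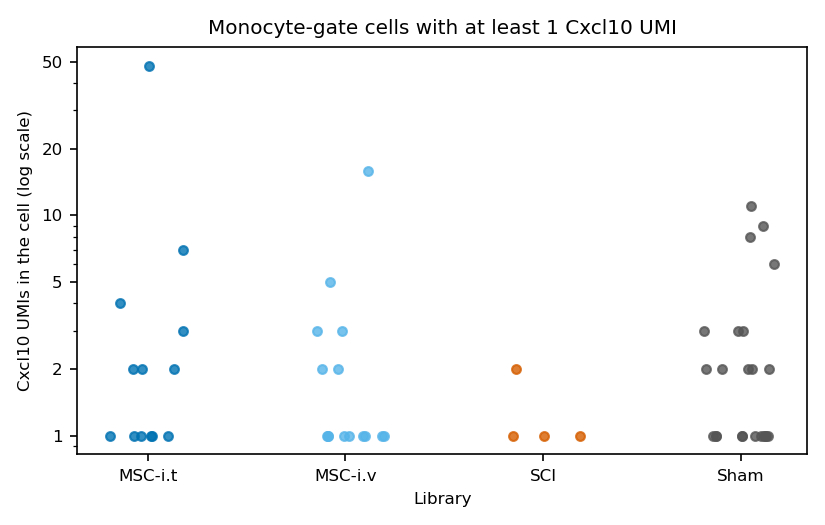
Cxcl10 UMIs (vertical axis, log scale) in each monocyte-gate cell with at least 1 such UMI, 1 point a cell, by library. A single MSC-i.t cell with 48 UMIs stands above all others, and SCI has 4 cells with at most 2 UMIs.

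Detection per cell was read after each cell had been thinned to 2000 UMIs, leaving out shallower cells, since median depth in the T gate was 5725 UMIs in MSC-i.t, 3832 in MSC-i.v, 6039 in SCI and 5153 in Sham. The share of T cells with an Igtp UMI was then 6.93% in MSC-i.t, 11.2% in MSC-i.v, 8.21% in SCI and 7.42% in Sham. In the erythroid gate, with median depths of 11689.5 UMIs in MSC-i.t, 8170 in MSC-i.v, 9085 in SCI and 11885 in Sham, the thinned share was at most 0.126%. Without thinning, the share of T cells with an Igtp UMI was 18.4% in MSC-i.t, 20.3% in MSC-i.v, 22.1% in SCI and 17.2% in Sham. The share of thinned T cells with an Irgm UMI was 2.29% in MSC-i.t, 4.68% in MSC-i.v, 2.58% in SCI and 2.04% in Sham, against at most 0.211% of erythroid cells. After thinning, the MSC-i.v library was the highest for both genes. At least 2 of the 5 GTPases were found in 1.43% of thinned T cells in MSC-i.t (99 of 6910), 4.06% in MSC-i.v (327 of 8062), 2.09% in SCI (115 of 5496) and 1.74% in Sham (94 of 5388). The interval of MSC-i.v, 3.64 to 4.51%, lies above those of the other libraries. In monocytes the shares were 5.78% in MSC-i.t, 6.21% in MSC-i.v, 12.4% in SCI (interval 8.91 to 16.6%) and 6.21% in Sham (interval 4.69 to 8.05%).

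Joint detection of Igtp and Irgm was counted in thinned T cells. In MSC-i.v, Igtp was found in 22.8% (86 of 377 cells, interval 18.7 to 27.4%) of thinned T cells with Irgm and in 10.6% (816 of 7685 cells, interval 9.94 to 11.3%) without it. Irf1 was found in 31.6% (119 of 377 cells, interval 26.9 to 36.5%) with Irgm and in 14.0% (1073 of 7685 cells, interval 13.2 to 14.8%) without it. These intervals do not overlap, and cells of 1 library are not replicates. The same pair Igtp and Irgm gave 13.6% (15 of 110 cells, interval 7.84 to 21.5%) against 7.29% (385 of 5278 cells, interval 6.61 to 8.03%) in Sham. In MSC-i.t, Igtp was in 10.8% (17 of 158 cells, interval 6.39 to 16.7%) with Irgm against 6.84% (462 of 6752 cells, interval 6.25 to 7.47%) without it. In SCI the shares were 14.1% (20 of 142 cells, interval 8.82 to 20.9%) with Irgm and 8.05% (431 of 5354 cells, interval 7.33 to 8.81%) without it. The intervals overlap in Sham and in MSC-i.t and just separate in SCI. Mx1, an antiviral GTPase, was found in 24.7% of MSC-i.v T cells with Igtp and 21.3% without, and Ifngr1 in 5.54% with Igtp and 6.75% without.

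**Figure D5:**
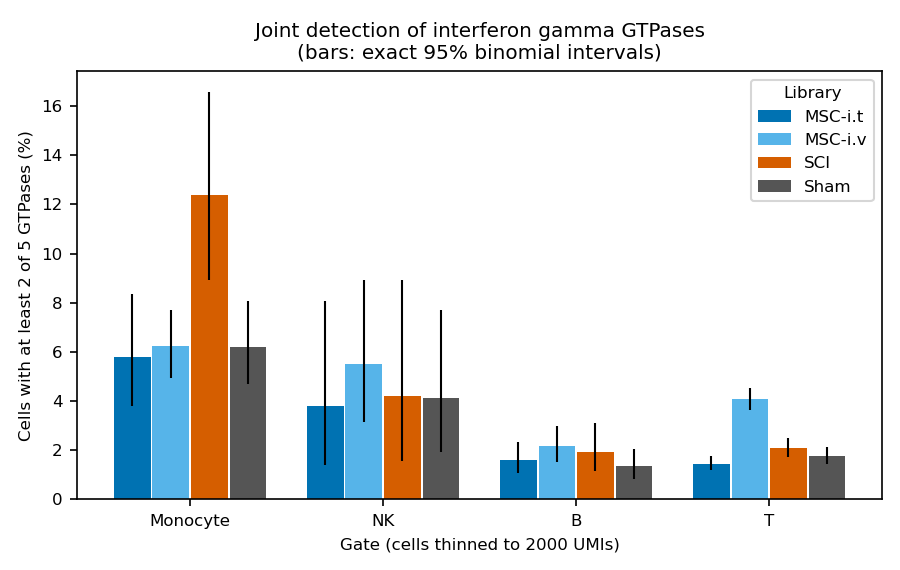
Share in percent (vertical axis, linear, from 0) of cells thinned to 2000 UMIs in which at least 2 of the 5 GTPases were detected, by gate and library, with exact 95% binomial intervals. MSC-i.v at 4.06% is highest in the T gate and SCI at 12.4% in the monocyte gate.

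The genes with the most similar pattern over the 16 sums of library and class were named for each GTPase and Irf1 by Pearson r of log2(CPM + 1) among 8757 genes. These r values mostly follow the 4 classes, since the sums share libraries and depth. Igtp was nearest to Abca7 (0.88), Pdcd4 (0.86) and the T cell gene Cd8b (0.86). Irgm was nearest to Eif2ak2 (0.93), the interferon-induced kinase PKR, Parp9 (0.89) and Zbtb7a (0.89). Gbp2 was nearest to Impa2 (0.97), Atp10a (0.97) and Nfe2l2 (0.97), Gbp4 to Nedd4l (0.99), Slc35e3 (0.98) and Rgs2 (0.97), and Gbp5 to Tecr (0.98), the NK receptor gene Klre1 (0.97) and Plekhg5 (0.97). Irf1 was nearest to the immunity-related GTPase Ifi47 (0.96), Rbpms (0.95) and the proteasome activator subunit Psme2 (0.95). Between members r was 0.92 for Gbp2 with Ifngr1, 0.84 for Irgm with Gbp4 and 0.82 for Gbp2 with Irf1.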

How the data were processed

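Single-cell libraries from the blood of rats were used, 1 a group. The deposited files hold UMI counts, and per the file headers Cell Ranger 4 wrote them as unfiltered matrices of 25340 genes by 6794880 barcodes. The build was mRatBN7.2, per the submitters' processing notes. Promoter sequences come from RefSeq GRCr8 and only these carry coordinates. The protocol in the labels is that of bulk RNA libraries and was set aside, since the files hold counts per barcode.

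Barcodes with at least 500 UMIs and 200 genes were kept. A T cell barcode had at least 3 UMIs of Cd3d, Cd3e and Cd3g, a B cell barcode of Cd79a, Cd79b, Ms4a1 and a further marker that is not reported here, a monocyte barcode of Csf1r, Cd68, Cd14, Fcnb, Vcan and Fn1, and an NK barcode of Nkg7, Klrd1, Ncr1, Gzma and Prf1. T, B and monocyte barcodes were limited to 1 UMI, or 25% of their own, of each other's sets, but not of the NK set. NK barcodes had the same limit for the B and monocyte sets and at most 1 UMI of the T set. These limits also served to limit doublets. Doublet calls by Scrublet (scanpy 1.11.5) were an alternative; Scrublet marked 0.0088% of MSC-i.t barcodes, where it did not work, and 2.65% to 6.96% in the other libraries. UMIs were summed per library and gate and scaled to CPM, with exact Poisson intervals, and ratios have exact conditional binomial intervals (scipy 1.17.1). A group has 1 library, so no p-values between groups were computed. Class contrasts used edgeR 4.0.16 in R 4.3.3 (TMM, library as a block) and, as an alternative, DESeq2 1.42.0. The steps were tested on simulated data with known fold changes. Of 76 list symbols, 67 matched the deposited gene lists. Genes named from the lists are those called in a comparison, at most 8 a list, by absolute log2 ratio; similar genes are the 3 with the highest r. All 9 members are described. The members and lists were chosen with earlier results of these data known.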

Additional observations from a re-analysis of the deposited data

Results flagged for a closer look

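In a pair of members the same comparison gave opposite directions in different cell classes, each past the 1.5-fold limit. Irgm in MSC-i.v over SCI had a log2 ratio of 0.98 in T cells and of -0.64 in monocytes. Cd274 in MSC-i.t over SCI had a log2 ratio of 0.92 in B cells and of -0.80 in monocytes. With cells thinned to 2000 UMIs the monocyte value of Cd274 was -0.17. The difference between classes was not tested, since each group is 1 library.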

How the results depend on the processing

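No paired analysis was possible because each group is 1 library; in the class tests library was a block, and with no replicate block the number of members lower in NK over B cells was 1, against 2, and the calls of Irf1 in B over T, of Cxcl10 and Irgm in monocytes over B and of Cxcl10 in NK over B were lost. The 62 called library ratios had 644 values under alternatives, of which 599 stayed on the same side and at least 1.5-fold and 4 reversed. All 4 were Cxcl10: MSC-i.t over SCI in B cells was -0.044 with cells thinned to 2000 UMIs, -0.73 as a mean of per-cell CPM and -0.61 without the cell with the most UMIs, and MSC-i.t over Sham in monocytes was -0.053 without that cell. Leaving out that cell, and scaling class sums by library size only, were alternatives chosen after seeing the data. The share of values kept is not a measure of robustness, since some settings hardly change the sums. Over all library ratios, called or not, removing shared barcodes left all 389 values within their main intervals, while thinning to 2000 UMIs moved 84. Calls in nested gates and in comparisons that share a library are not separate either.

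With the median gene centred at 0, summed GTPases were 0.019 for SCI over Sham in T cells, 0.60 for SCI over Sham in monocytes, -0.072 for MSC-i.t over SCI in T cells, 0.68 for MSC-i.v over SCI in T cells and -0.42 for MSC-i.v over SCI in monocytes. With free RNA subtracted they were, in T cells, 0.034 for SCI over Sham, while MSC-i.v over SCI had 0.57. MSC-i.v over SCI in T cells was 0.54 with Scrublet calls removed and 0.52 without hemoglobin, mitochondrial and ribosomal protein genes. The causes were not tested. Igtp in SCI over Sham monocytes was 0.47 as a mean of per-cell CPM, and Irf1 in MSC-i.v over Sham T cells was 0.58 under the stricter gate, both short of 1.5-fold.

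Leaving out 1 library at a time gave 3 to 5 members higher in NK over T (3 without SCI), 0 to 1 lower in monocytes over B (0 without Sham) and 1 to 2 lower in NK over B (1 without MSC-i.t, SCI or Sham). Irgm in monocytes over B lost its call without MSC-i.t, SCI or Sham. Library size alone as the scale put the median gene at 0.17 in monocytes over T, 0.29 in B over T and 0.33 in NK over T. In the test used, the median gene was at -0.033, 0.011 and -0.064 in these contrasts. Library size alone gave 1 member lower in NK over B. Among the member results of the class tests, 3 calls were gained and 3 lost under that scale. NK gates of at most 295 cells and monocyte gates of at least 325 cells limit the precision.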
